A study of Mus musculus with 12 samples.

Results

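The DEAD and DEAH box RNA helicases were followed in mouse lymphoid cells that make ribosomes with human RPL10, either WT or carrying the R98S mutation. Members were taken by name, as the mouse genes whose symbol starts with Ddx or Dhx and a number and which are listed in both deposited tables, with 2 symbols left out by the rule. This gave 49 genes, 34 Ddx and 15 Dhx, of the 10080 genes that both tables list. Apart from this listing the selection used no measured value. Every gene listed for RPF had at least 1 read in each RPF library, so the listing itself requires footprints. Ba/F3 is an interleukin-dependent mouse pro-B cell line. In every clone endogenous Rpl10 was silenced with an shRNA and a human RPL10 cDNA was expressed from a retroviral vector, so that the genotypes differ in the cDNA. The 3 R98S clones (11, 13 and 35) and the 3 WT clones (28, 29 and 36) were monoclonal cultures, each grown from 1 cell, and all received cycloheximide at 100 µg/ml for 5 min. From each clone 1 ribosome footprinting library (RPF, mRNA fragments protected by ribosomes) and 1 mRNA library were sequenced, 12 libraries in all. P-values therefore measure the spread between single clones of a genotype.

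DEAD and DEAH box proteins use ATP to open RNA duplexes or to strip proteins from RNA, and they are named after the residues of motif II, which helps to bind and cleave ATP. DEAD box enzymes prise short duplexes apart on the spot, whereas DEAH box enzymes pull themselves along a strand. They drive ribosome assembly in the nucleolus, the rearrangements of the spliceosome, mRNA export, translation initiation and mRNA decay, and RPL10 itself is a late-joining protein of the large ribosomal subunit.

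Motif II is where the members resemble each other, and it was read from the coding sequences of the GENCODE annotation of the GRCm38 genome (mm10), the build the authors used. All 49 symbols were found there. The DEAD letters stood in 27 members, all of them Ddx genes, and the DEAH letters in 9, namely 8 Dhx genes and Ddx11. Another 12 had a variant, and none was found in Dhx32. With the same requirement of 2 hydrophobic residues before the motif, the DEAD letters occurred in 0.322% and the DEAH letters in 0.194% of 21086 coding genes. Ddx26b, an Integrator-like gene that current annotation calls Ints6l, also has the letters, although its present name is not that of a helicase. The runs below are those of the members on which the results turn. They are coding strand, with the 12 bases of motif II in capitals and 9 bases on each side.
Dhx16: gtgatggtgGATGAAGCTCACgagcggacc
Dhx57: atcattgttGATGAAGTTCATgagaggaca
Ddx50: gttgtgcttGATGAAGTAGATcaaatgtta
Ddx21: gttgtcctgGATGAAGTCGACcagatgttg
Ddx39b: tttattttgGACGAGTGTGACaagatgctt
Ddx39: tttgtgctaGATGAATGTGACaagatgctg
Ddx19a: tttgttctgGACGAGGCTGATgtgatgata
Ddx19b: tttgttctgGACGAGGCTGATgtgatgata

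Dhx16 has the DEAH letters at codon 523 (chr17:35885508-35885519, plus strand), and Dhx57 a variant at codon 669 (chr17:80267532-80267543, minus strand). Ddx50 (chr10:62640511-62640522, minus strand) and Ddx21 (chr10:62591881-62591892, minus strand) differ from each other at 6 of these 30 bases, and Ddx39b (chr17:35247090-35247101, plus strand) and Ddx39 (chr8:83721110-83721121, plus strand) at 7. Ddx19a (chr8:110979086-110979097) and Ddx19b (chr8:111011335-111011346), both on the minus strand, are identical over the run. The close pairs are also neighbours on the genome in 2 cases: Ddx19a and Ddx19b are 5.387 kb apart on chromosome 8, and Ddx21 and Ddx50 are 13.6 kb apart on chromosome 10. The 49 genes otherwise spread over 15 chromosomes. Coding sequences were longer for Dhx genes (median 3435 bases, from 2094 to 4164) than for Ddx genes (median 1947, from 1281 to 3096).

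Reads from near-identical sequence can limit what a gene count means. Of all 30-base windows of the coding sequence, 83.3% in Ddx18, 63.2% in Ddx5, 57.9% in Ddx19a, 55.9% in Ddx19b, 40.3% in Ddx50 and 32.2% in Ddx6 also occurred in transcripts of another annotated gene. For Ddx19a and Ddx19b that gene was the partner, and for the other 4 it was a predicted gene model. Values of these 6 genes are uncertain for this reason. A further 7 members shared up to 10%, and 36 shared none.

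The deposited values are read counts divided by a size factor for each library, called normalized counts here. The mRNA libraries held 20576796 to 23136595 reads, except that of WT clone 28 with 6617457, where 1 read is worth 2.69 normalized counts, and the RPF libraries held 3477723 to 10883086. Mouse Rpl10, to which reads of the transgene can also count, was at 1449 to 4501 normalized mRNA counts over the clones, so it does not check the labels. Of 13 markers listed for this lineage, 6 were at 10 or more in every clone (Ptprc, Il3ra, Csf2rb, Csf2rb2, Cd79a and Cd79b), while 7 were below 10 in every clone, with Kit, Rag1 and Pax5 at 0. Of 8 markers of other cells, 5 were below 10 everywhere, and their summed level was 21.5 to 39.7 in R98S and 5.37 to 53.3 in WT clones. Their part in the results was not tested.

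The helicases were well expressed. They took 0.730% to 0.872% of all mRNA reads and 0.744% to 0.823% of all RPF reads of a library. On a per-length scale (normalized counts per kilobase of exons or of counted coding sequence, mean of the WT clones), the median member stood at percentile 70.2 ± 1.37 of the tested genes for mRNA, at 58.0 ± 3.15 for RPF and at 43.1 ± 6.11 for the ratio of RPF to mRNA (SD over the 3 clones taken singly). No member was below the 25.8th percentile for mRNA, and 10 were above the 90th. Members had to have footprints in every RPF library, which the genes tested for mRNA did not, so these levels depend in part on the selection.

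**Figure D1:**
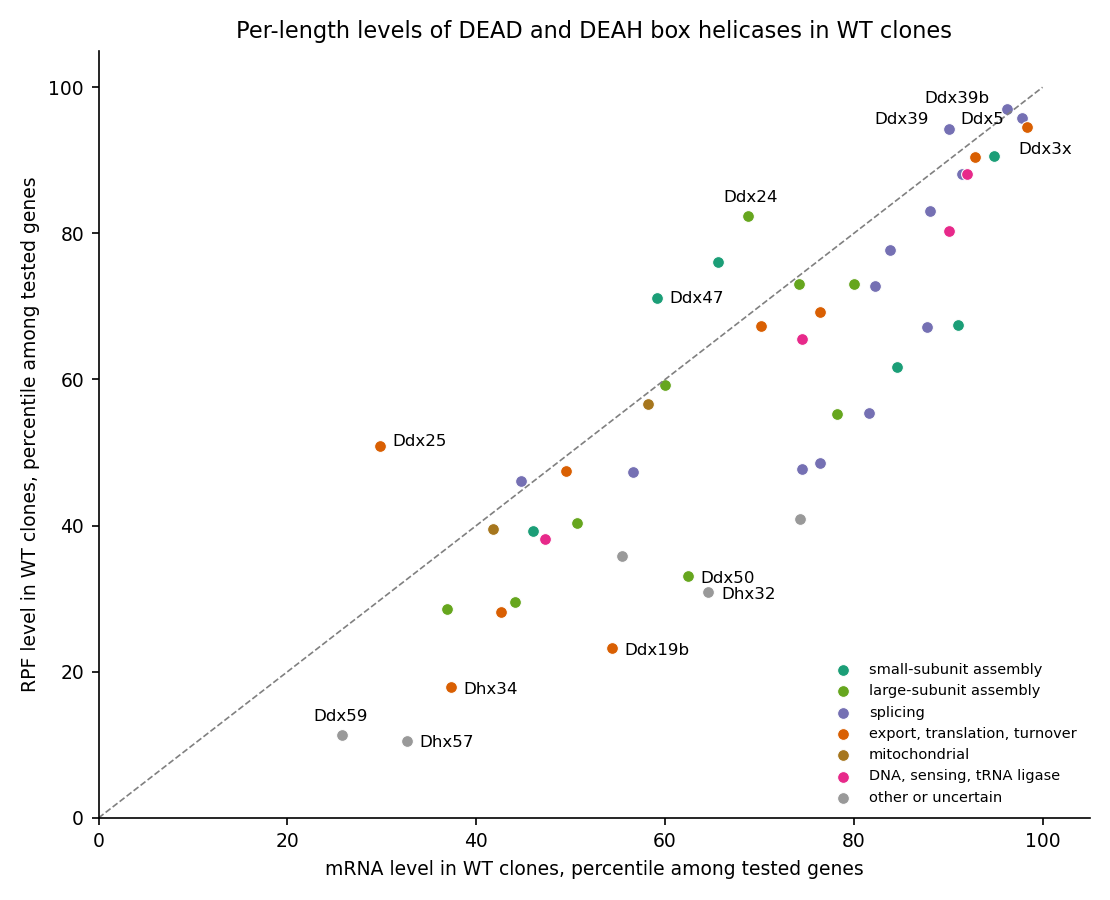
Percentile of each of the 48 helicases with tested footprints among all tested genes, for per-length mRNA level (x axis) and per-length RPF level (y axis), as means of the 3 WT clones and coloured by role. Ddx3x, Ddx5 and Ddx39b lie at the top right, Ddx59 and Dhx57 at the bottom left, and Ddx25 lies above the dashed line of equal percentiles.

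Ddx3x, which unwinds structured mRNA leaders for translation, had the highest per-length mRNA level of all members (3689 ± 746 per kilobase, SD, n = 3 WT clones). Ddx5, a coregulator of splicing and transcription, followed with 2782 ± 292, and Ddx39b, which loads onto pre-mRNA for splicing and export, with 1823 ± 417. The SDs of Ddx3x and Ddx5 overlap, but both genes were read in the same libraries. Before division by length, Ddx3x was at 15282.5, 20014 and 23102 in WT clones 28, 29 and 36, and Ddx5 at 14565.5, 15746 and 17892. Exons of Ddx3x are also shorter (5277 against 5775 bases), so it was the higher in each WT clone. That difference was not tested. In RPF the order was Ddx39b (3347 ± 841), Ddx5 (2627 ± 284) and Ddx3x (2161 ± 183).

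At the other end, Ddx59 (53.2 ± 7.12), Ddx25 (65.4 ± 14.6) and Dhx57 (75.5 ± 14.8) had the lowest per-length mRNA. Ddx25, best known from male germ cells, was at percentile 50.8 for RPF, and its RPF to mRNA ratio stood at percentile 91.0, with Ddx39 at 90.7 and Ddx24 at 90.0. Ddx19b (8.61), Dhx32 (8.79) and Dhx57 (9.21) had the lowest ratios. Ddx19b shares 55.9% of its coding windows with Ddx19a, and reads there may be missing, so its rank is uncertain. These ranks can depend on the length used, which was that of all annotated exons of a gene. For Ddx24 these cover 8242 bases against 4274 in the longest transcript, and for Ddx25 6934 in both. Dhx genes were lower than Ddx genes on each scale, with median percentiles of 55.4 against 75.5 for mRNA, 46.1 against 67.5 for RPF and 33.8 against 45.7 for the ratio.

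Ddx43, a cancer-testis antigen, was the one member with mRNA but hardly any footprints. Its mRNA was 519, 294 and 343 normalized counts in R98S (clones 11, 13 and 35) against 395, 204 and 161 in WT (clones 28, 29 and 36). Its RPF was at 16.0, 2.51 and 11.8 in R98S against 7.64, 9.37 and 5.27 in WT clones, from as few as 3 reads. It was therefore tested for mRNA only. Per length, WT clones held 115 ± 56.3 mRNA and 3.96 ± 1.10 RPF counts per kilobase, whereas Dhx57, the lowest member tested for RPF, was at 27.2 ± 3.51. Symbols of the family listed only for mRNA were at or near 0. Ddx3y had no read in any library, Ddx60 had 2 reads in R98S clone 35 alone, and Ddx4, the germ cell Vasa gene, had 1 to 6 reads in every library.

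R98S and WT clones were then compared gene by gene. Each table was fitted with limma on log2(normalized count + 1) over all genes with a mean of at least 10, a scale that understates the change of low genes, and a Benjamini-Hochberg adjusted p under 0.1 over all tested genes counted as a change. The log2 ratio of RPF to mRNA in each clone, called translation efficiency (TE), was fitted in the same way for genes that reached 10 in each of the 12 libraries. An exact permutation test of a single gene cannot go below p = 0.1 with 3 against 3 clones.

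For mRNA, 0 of the 49 helicases passed, where 6.94% of all tested genes did (limma). DESeq2 and edgeR on the recovered reads also called 0, against 11.3% and 7.1% of all genes. With library weights 6 members passed, Ddx39b, Ddx3x, Ddx41, Ddx43, Ddx50 and Dhx16, or 12.2%, where 26.1% of all genes did. At an unadjusted p under 0.05, limma gave 5 members, or 10.2%, against 17.9% of all genes: Ddx18, Ddx21, Ddx39b and Dhx16 with higher and Ddx50 with lower means in R98S clones. R98S and WT values were separate for 4 members, Ddx41 and Dhx16 above and Ddx50 and Dhx34 below, which is 8.16% against 23.5% of all tested genes.

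For RPF, 2 of 48 tested members passed, or 4.17%, against 7.76% of all tested genes (limma). Dhx16 rose and Dhx57 fell in R98S clones. With DESeq2 3 members passed (11.3% of all genes), the third being Ddx50, and with edgeR the same 2 as with limma (8.43% of all genes). Library weights gave the same 3 members as DESeq2, against 18.8% of all genes. An unadjusted p under 0.05 was reached by 4 members, against 20.3% of all genes. The genotypes did not overlap for 8, or 16.7%, against 25.3% of all genes: Ddx23, Ddx54, Dhx15 and Dhx16 above, and Ddx3x, Ddx47, Ddx50 and Dhx57 below.

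For TE, 0 of 48 members passed, where limma called 0.0221% of all tested genes. DESeq2 called Dhx57 (0.675% of all genes) and edgeR 0 members (0.0332% of all genes), and library weights called Ddx47, Ddx51 and Dhx57, or 6.25% of members against 8.8% of all genes. An unadjusted p under 0.05 was reached by Ddx51 and Dhx57, 4.17% of members against 7.85% of all genes. The genotypes did not overlap for 7 members, or 14.6%, close to the 14.8% of all genes. Dhx16, Ddx19b and Ddx51 were above, and Ddx39, Ddx39b, Ddx47 and Dhx57 below.

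The changes of the family were small. Log2 fold changes of mRNA ran from -0.49 to 0.67 with a median of 0.07, and 93.9% of members, against 75.6% of all genes, lay within 0.5 of 0. For RPF they ran from -0.84 to 0.66 with a median of -0.07, and 91.7% against 75.1% lay within 0.5. For TE the shares were closer, 91.7% against 88.4%, with a median absolute difference of 0.20 against 0.21. The clones of a genotype also varied less for members than for all genes, with a median SD of 0.23 against 0.29 on the log2 scale for mRNA and 0.24 against 0.28 for RPF. Members were not matched with other genes for level, so a lower spread is not shown to be particular to them. Standard errors of single members were 0.16 to 0.35 for mRNA, and even the difference of Ddx50, -0.49 with a standard error of 0.19, did not pass.

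**Figure D2:**
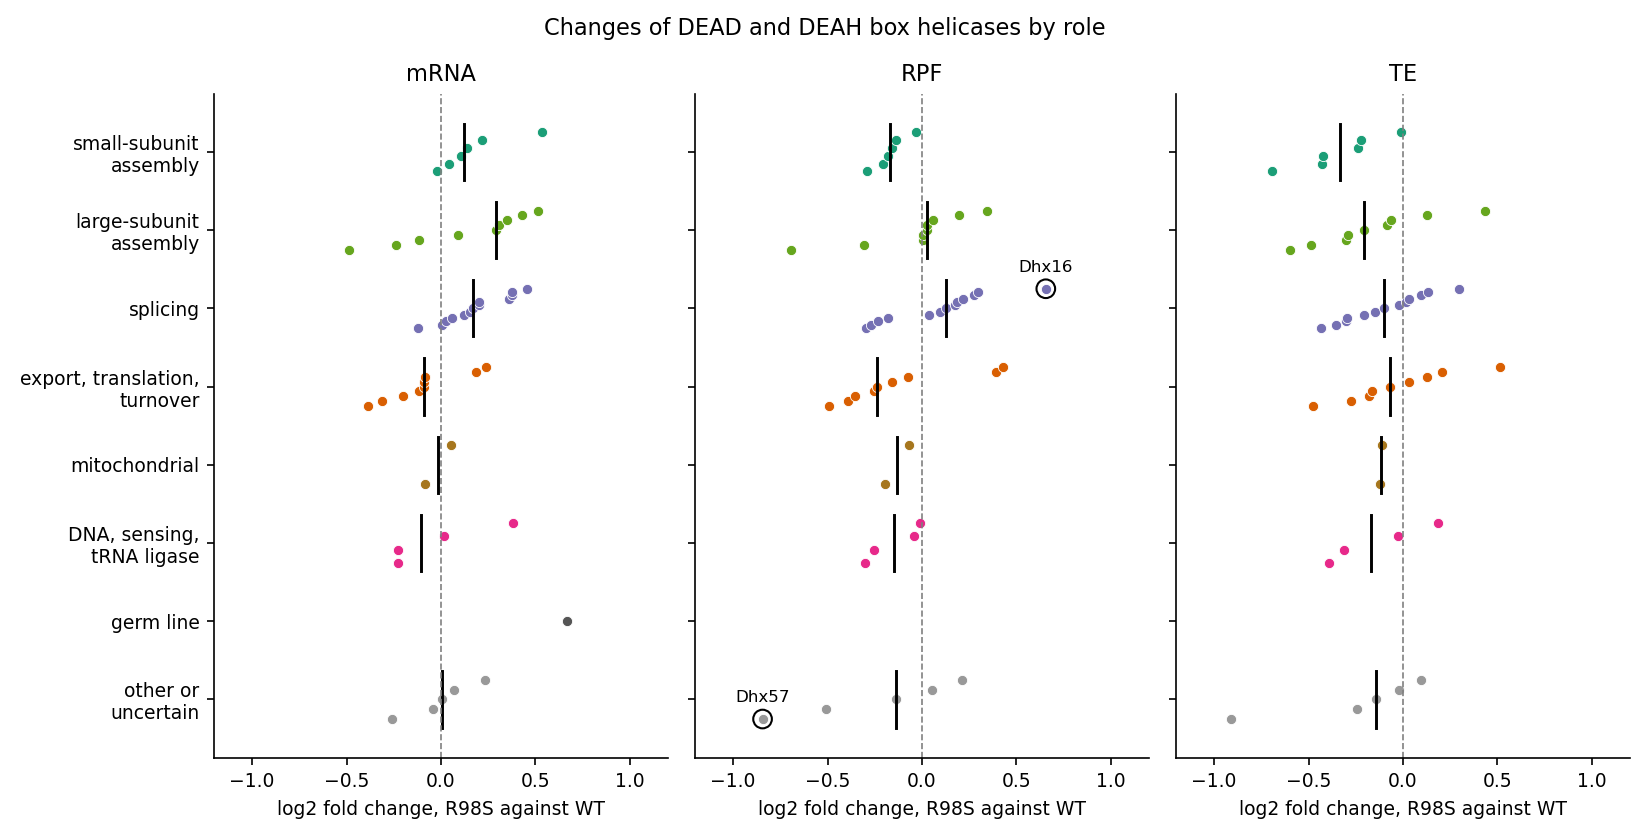
Log2 fold change of each helicase in R98S against WT clones for mRNA, RPF and TE (x axes), by role (rows), with the median of each role as a black line. Circles mark Dhx16 and Dhx57, the 2 members past an adjusted p of 0.1 in RPF, at 0.66 and -0.84, and most other points lie within 0.5 of 0.

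Dhx16, the spliceosomal helicase that remodels the complex just before the chemistry of splicing starts, is encoded at chr17:35879819-35892670 on the plus strand. Its RPF was 709, 745 and 796 normalized counts in R98S (clones 11, 13 and 35) against 424, 506 and 501 in WT (clones 28, 29 and 36). All R98S clones lay above all WT clones. Dhx16 RPF rose by 0.66 (log2 fold change, standard error 0.17, adjusted p = 0.0592, limma).

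Dhx16 mRNA was at 1769.5, 1735 and 1749 in R98S against 1509, 1279 and 1317 in WT clones. The groups were again separate, but the difference of 0.36 did not pass (standard error 0.16, adjusted p = 0.269, limma). It passed with library weights (0.41, adjusted p = 0.0411). The TE difference was 0.30 (adjusted p = 0.696, limma). The RPF call was kept in all 6 other settings of the test (adjusted p from 0.024 to 0.0627). It was lost without R98S clone 11 (adjusted p = 0.154), R98S clone 13 (0.193), WT clone 28 (0.149) or WT clone 36 (0.126), while the log2 fold change stayed between 0.57 and 0.70 (limma).

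Dhx57, a large DEAH-type protein encoded at chr17:80238309-80290476 on the minus strand, went the other way. Its RPF was at 73.4, 60.3 and 52.1 normalized counts for R98S and 102, 128 and 104 for WT clones, from as few as 31 reads. Every R98S clone lay below every WT clone. Dhx57 RPF fell by 0.84 (log2 fold change, standard error 0.25, adjusted p = 0.0866, limma).

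Dhx57 mRNA showed no such separation. It was at 557, 492 and 382 in R98S against 357, 532 and 479 in WT clones, and the groups overlapped (log2 fold change 0.07, adjusted p = 0.919, limma). The log2 TE was -2.91, -3.01 and -2.85 in R98S against -1.79, -2.05 and -2.19 in WT clones, without overlap. That difference, -0.91 (standard error 0.20), was the largest of any tested member but did not pass over all genes (adjusted p = 0.517, limma). DESeq2 on the recovered reads gave an adjusted p of 0.0644 and limma with library weights 0.0157, and the 4 other settings did not pass. The RPF call for Dhx57 was lost in each of the 6 fits without 1 clone (adjusted p from 0.121 to 0.254, log2 fold change from -0.97 to -0.73, limma) and kept in the 6 other settings (0.0557 to 0.0952).

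**Figure D3:**
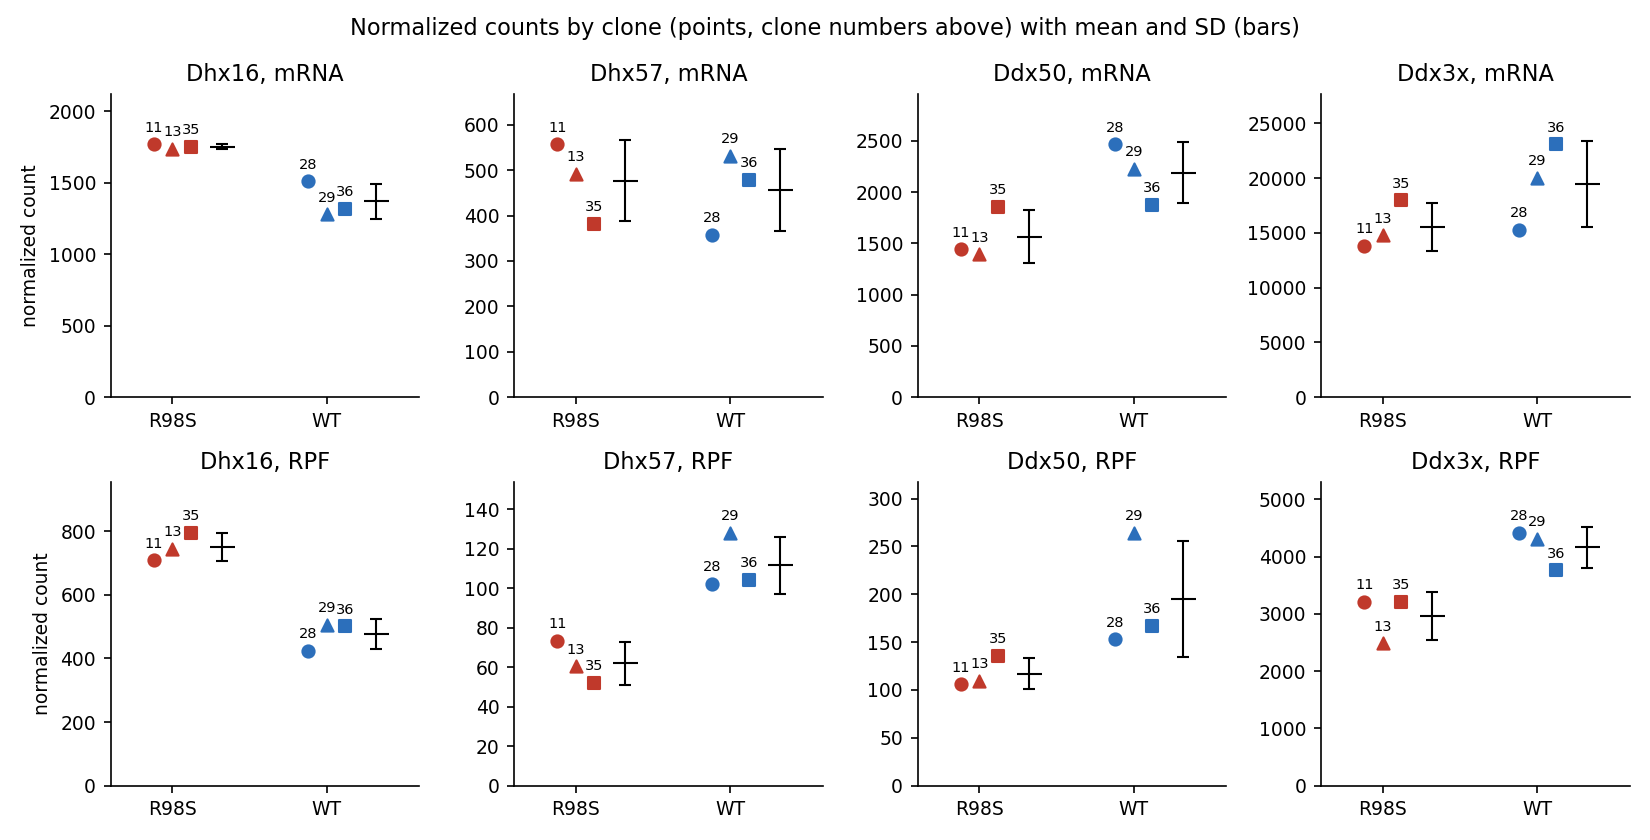
Normalized counts of Dhx16, Dhx57, Ddx50 and Ddx3x in each clone (y axes from 0), mRNA above and RPF below, with R98S clones in red, WT clones in blue, and mean ± SD of 3 clones as black bars. RPF of the genotypes is separate in all 4 genes, whereas Dhx57 mRNA overlaps.

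Helicases of small-subunit assembly were measured through 6 members: Ddx10, Ddx47, Ddx49 and Ddx52, which act in pre-rRNA processing, Dhx37, which releases the U3 snoRNA, and Ddx21, a nucleolar protein of rRNA transcription and processing. None passed in any assay. Their mRNA was higher on average in R98S clones for 5 of 6 (median log2 fold change 0.12), whereas RPF was lower for 6 of 6 (median -0.17) and TE for 6 of 6 (median -0.33). WT clone 28 held the highest RPF for 4 and the highest TE for 5 of the 6, and without it the medians were 0.07 for mRNA, -0.06 for RPF and -0.19 for TE. Among all genes, 50.2% had a TE difference below 0.

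Ddx21 had the largest TE difference of these genes. Its mRNA was at 9850.1, 10889 and 9650.0 normalized counts for R98S and 5645, 6201 and 9764 for WT clones, so that WT clone 36 lay within the R98S range (a difference of 0.53, adjusted p = 0.235, limma). Of the 6 fits without 1 clone, only the fit without that clone passed for mRNA (0.77, adjusted p = 0.0845, limma). Leaving out the overlapping clone by itself widens the difference. Over the 6 fits the mRNA difference ran from 0.38 to 0.77, with adjusted p up to 0.535 (limma). RPF was at 3057, 2473 and 2902 in R98S against 4795, 2221 and 2878 in WT clones. Here WT clone 28 stood far above the rest and WT clone 29 lowest, and the log2 fold change was -0.16, or 0.15 without WT clone 28. The TE difference was -0.69 (adjusted p = 0.646, limma), or -0.23 without that clone, with WT clone 28 at -0.24 and the other 5 clones between -2.14 and -1.48.

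Ddx47 RPF varied little within a genotype. The values were 438, 428 and 423 in R98S against 501, 515 and 470.4 in WT clones. The groups did not overlap, yet the difference was only -0.20 on the log2 scale (adjusted p = 0.524, limma). The TE difference of Ddx47 was -0.42 (adjusted p = 0.635, limma).

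Large-subunit assembly has 9 members, Ddx18, Ddx24, Ddx27, Ddx31, Ddx51, Ddx54, Ddx55 and Ddx56, whose yeast relatives work on precursors of the subunit that RPL10 joins, and Ddx50, the nucleolar paralogue of Ddx21. None passed. The median mRNA difference was 0.29, with 6 of 9 above 0, and the median RPF difference 0.03, or 0.25 without WT clone 28. The TE difference was below 0 for 7 of 9, with a median of -0.21, or -0.07 without that clone. WT clone 29 had the lowest mRNA for 6 and the lowest RPF for 7 of the 9.

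Ddx18 mRNA was at 1496, 1471 and 1172 in R98S against 991, 721 and 1241 in WT clones, with overlap (log2 fold change 0.51, adjusted p = 0.270, limma). Ddx54, which also binds nuclear receptors, had RPF of 704, 808 and 786 in R98S against 675, 482 and 671 in WT clones. These did not overlap (log2 fold change 0.34, adjusted p = 0.342, limma). Ddx24 had the largest TE difference of the group, -0.60 (adjusted p = 0.650, limma), and its log2 TE was 0.51 in WT clone 28 against -1.02 to -0.53 elsewhere. Ddx51 went the other way in TE, at -1.17, -1.41 and -1.54 in R98S against -1.75, -1.81 and -1.85 in WT clones. The clones were separate, and the difference was 0.43 (adjusted p = 0.629, limma).

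Ddx50 stood apart from its group. Its mRNA was at 1442, 1393 and 1859 normalized counts for R98S and 2468, 2229 and 1876 for WT clones. Its RPF was at 106, 109.8 and 136 in R98S against 153, 264 and 167 in WT clones. R98S clones were lower in both assays without overlap, with R98S clone 35 closest to the WT clones. The log2 fold changes were -0.49 for mRNA (adjusted p = 0.200, limma) and -0.69 for RPF (standard error 0.25, adjusted p = 0.151, limma), and the RPF difference passed with DESeq2 (adjusted p = 0.0934).

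Splicing is the largest group, with 13 members. It holds the spliceosomal helicases Ddx23, Ddx41, Ddx42, Ddx46, Dhx8, Dhx15, Dhx16, Dhx35 and Dhx38, the splicing and export factors Ddx39b and Ddx39, and the coregulators Ddx5 and Ddx17. Apart from Dhx16 none passed. The mean mRNA was higher in R98S clones for 12 of 13, with a median of 0.17 and Ddx17 (-0.12) as the exception, and RPF for 9 of 13, with a median of 0.13, or 0.23 without WT clone 28. TE was lower for 8 of 13, with a median of -0.10. Among all genes, 48.6% had an mRNA difference below 0 and 48.8% an RPF difference below 0.

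Ddx39b mRNA was at 9779, 8403 and 9771 in R98S against 8706, 5803 and 6184 in WT clones, and WT clone 28 lay within the R98S range. The difference of 0.45 did not pass (adjusted p = 0.256, limma). Of the 6 fits without 1 clone, only the fit without WT clone 28, the overlapping clone, passed (0.63, adjusted p = 0.0512, limma). Over the 6 fits the difference ran from 0.34 to 0.63, with adjusted p up to 0.578 (limma). RPF of Ddx39b differed by 0.10, and it was highest in WT clone 28 (5273).

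Ddx41, which is mutated in inherited myeloid neoplasms, had mRNA of 1204, 1265 and 1281 in R98S against 1098, 823 and 988 in WT clones. These did not overlap (log2 fold change 0.38, adjusted p = 0.302, limma). Ddx23, a protein of the U5 snRNP, had RPF of 1152, 1239.6 and 1263 in R98S against 972, 961 and 1038 in WT clones. Again the clones were separate (log2 fold change 0.30, adjusted p = 0.325, limma). Dhx15, which takes spent spliceosomes apart, had RPF of 2142, 1808 and 1797 in R98S against 1773, 1518 and 1755 in WT clones and also did not overlap (log2 fold change 0.19, adjusted p = 0.578, limma). Ddx46, which acts on the U2 snRNP at the branch point, overlapped between genotypes in mRNA (0.20) and RPF (-0.23).

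Export, translation and turnover is covered by 9 members, none of which passed. Ddx19a and Ddx19b release mRNA at the nuclear pore, Ddx3x and Dhx29 assist initiation on structured leaders, Dhx33 acts in initiation, Ddx6 takes part in mRNA repression and decapping in P bodies, Dhx34 takes part in nonsense-mediated decay, and Dhx36 unfolds G-quadruplexes. Ddx25 was placed here for its role in export and translation in spermatids. Both mRNA and RPF were lower on average in R98S clones for 7 of 9, with medians of -0.09 and -0.24, where 48.6% and 48.8% of all genes were below 0. WT clone 28 held the highest RPF for 6 of the 9, and without it the RPF median was -0.15.

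Ddx3x RPF was at 3213, 2484 and 3211 in R98S against 4417, 4308 and 3758 in WT clones. No R98S clone reached a WT clone, and the difference was -0.49 (standard error 0.18, adjusted p = 0.153, limma). Ddx3x mRNA was at 13811, 14789.7 and 17975 in R98S against 15282, 20014 and 23102 in WT clones, with overlap (-0.31, adjusted p = 0.469, limma). With library weights the mRNA difference was -0.58 and passed (adjusted p = 0.0278). Of the coding windows of Ddx3x, 9.07% also occur in D1Pas1, Ddx3y or a predicted gene model.

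Dhx34 mRNA was lower in every R98S clone (325, 287 and 345) than in any WT clone (513, 356 and 395), with a log2 fold change of -0.39 (adjusted p = 0.394, limma). Dhx33 RPF was 399, 493 and 334 against 306, 255 and 373. WT clone 36 lay above R98S clone 35, and the difference was 0.39 (adjusted p = 0.346, limma). Ddx6, at 6189.8 to 10236 normalized mRNA counts, and Dhx36, at 2287 to 3106, overlapped between genotypes in both assays.

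The mitochondrial members Ddx28, a factor of mitochondrial ribosome assembly, and Dhx30, of mitochondrial RNA granules, had differences between -0.20 and 0.05 in mRNA and RPF. The remaining assigned members are Ddx1, of the tRNA ligase complex, Ddx11, a DNA helicase of chromatid cohesion, Ddx20, of the SMN complex, and Dhx9, which resolves RNA-DNA hybrids. RPF differences of these 4 ran from -0.30 to -0.01, and none passed. Dhx9 mRNA was at 10399.5, 10081 and 9284 in R98S against 6423, 6945 and 9889.6 in WT clones, and WT clone 36 lay within the R98S range (0.38, adjusted p = 0.352, limma). Over the other settings of the test the Dhx9 mRNA difference ran from 0.18 to 0.38.

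Members of other or uncertain role were Dhx57, above, and Ddx26b, Ddx59, Dhx32 and Dhx40. Ddx26b had RPF of 216, 195 and 275 in R98S against 292, 428 and 268 in WT clones. R98S clone 35 lay just above WT clone 36, and the difference was -0.51 (adjusted p = 0.252, limma). The other 3 had differences from -0.14 to 0.23 in mRNA and RPF. For Ddx43 the mRNA difference was 0.67 (standard error 0.35, adjusted p = 0.365, limma), the largest of any member, and R98S clones 13 and 35 lay below WT clone 28. Of the 6 fits without 1 clone, only the fit without that overlapping clone passed (1.04, adjusted p = 0.0718, limma). Over the 6 fits the difference ran from 0.40 to 1.04, with adjusted p up to 0.742 (limma). With library weights the difference was 1.24 (adjusted p = 0.0120).

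The plot of deviations by clone shows how the members varied over the 6 clones. WT clone 28 held the highest RPF of 23 of 48 members, or 47.9%, against 20.2% of all tested genes. Its median deviation from the mean of the 6 clones was 0.25 on the log2 scale for members and 0.00 for all genes. In mRNA it held the highest value of 10 and the lowest of 12 members, shares of 20.4% and 24.5% that are below the 23.9% and 27.5% of all genes. WT clone 29 was often the lowest. It held the lowest mRNA of 18 of 49 members (36.7% against 16.9% of all genes) and the lowest RPF of 19 of 48 (39.6% against 20.6%).

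**Figure D4:**
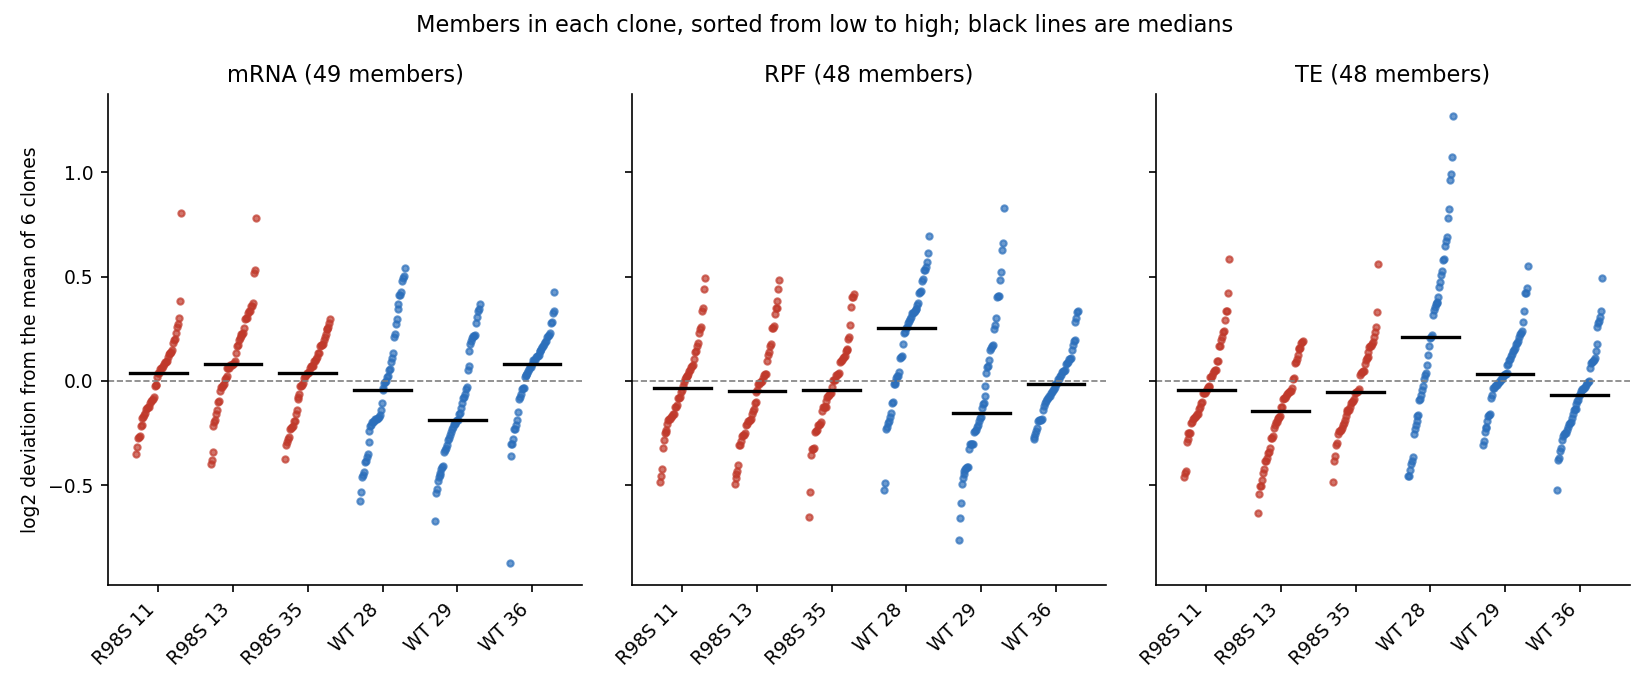
Deviation of each helicase from its own mean over the 6 clones (y axis, log2), in each clone, for mRNA, RPF and TE, with R98S clones in red, WT clones in blue and medians as black lines. The median of WT clone 28 stands at 0.25 in RPF and 0.21 in TE, and that of WT clone 29 at -0.19 in mRNA and -0.15 in RPF.

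TE was below 0 for 35 of 48 members (72.9% against 50.2% of all genes), with a median of -0.14. WT clone 28 had the highest TE for 23 of 48 members (47.9% against 34.2% of all genes). The mRNA library of this clone is the shallow one, and the median deviation of members in it was 0.25 for RPF and -0.04 for mRNA. What lies behind its high TE was not tested. Without WT clone 28 the share below 0 was 64.6% and the median -0.08, against 48.7% and 0.01 for all genes. When the other clones were left out one at a time, the share stayed between 64.6% and 75.0% and the median between -0.21 and -0.08. Within each clone, deviations of the mRNA and RPF values from the genotype mean went together over the members with a mean Pearson's r of 0.43, from -0.06 to 0.82, against 0.52 over all genes. These are correlations across genes of 1 clone, which are not independent replicates.

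Related members were set against each other within each clone, as a per-length ratio, which does not depend on the size factor of the library. Of 10 comparisons (5 pairs in 2 assays), 4 had no overlap between genotypes. Each of these had an exact two-sided permutation p of 0.1, the smallest possible, and 0.25 after adjustment over the 10. Of all tested single genes, 23.5% in mRNA and 25.3% in RPF did not overlap. The share among other gene pairs was not computed, so the count of 4 is not shown to be particular to these pairs.

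The ratio of Ddx39b to Ddx39, paralogues that both have a variant motif II, was higher in R98S clones in both assays. For mRNA it was 3.25, 3.12 and 3.00 in R98S against 2.26, 2.69 and 1.97 in WT clones. For RPF it was 2.11, 2.24 and 1.95 in R98S against 1.85, 1.73 and 1.27 in WT clones. The nearest clones, R98S 35 and WT 28 in RPF, were close.

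The ratio of Ddx19a to Ddx19b overlapped between the genotypes in mRNA (2.14 ± 0.229 in R98S and 2.18 ± 0.488 in WT clones, SD, n = 3, exact permutation p = 1.0) but not in RPF. There it was 3.68, 4.39 and 3.76 in R98S against 5.67, 6.41 and 5.75 in WT clones, a log2 difference of -0.60. Ddx19b itself had RPF of 143, 101 and 113 in R98S against 103, 75.0 and 85.7 in WT clones, which overlapped (0.43, adjusted p = 0.356, limma), and Ddx19a differed by -0.16. The log2 TE of Ddx19b was -2.83, -3.32 and -3.34 in R98S against -3.44, -3.65 and -3.94 in WT clones, without overlap, a difference of 0.51 (adjusted p = 0.635, limma). These genes share much of their coding sequence, and only reads with a mapping quality of at least 10 were kept. Reads of the shared part may therefore be missing or misplaced, while the whole counted length was the divisor, so the ratio is uncertain.

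**Figure D5:**
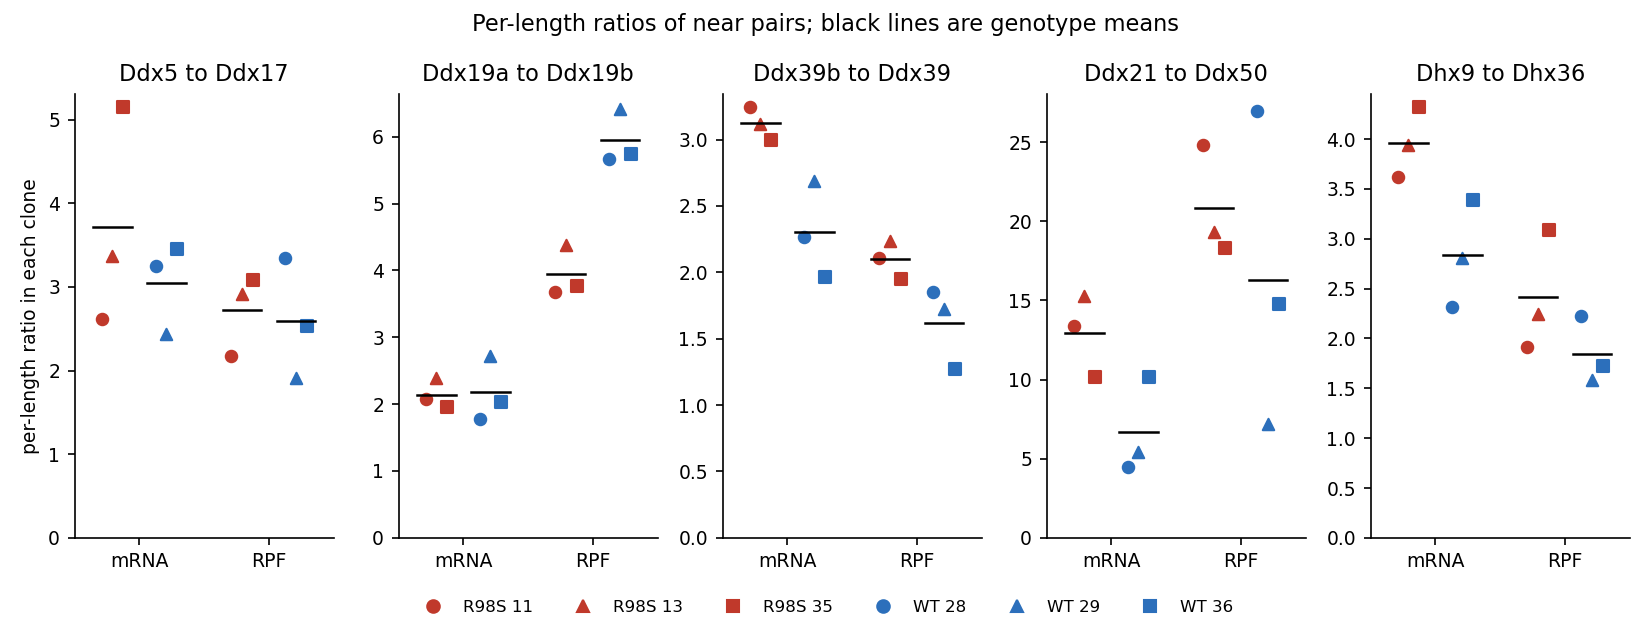
Per-length ratio of the first to the second gene of 5 related pairs in each clone (y axes from 0), for mRNA and RPF, with R98S clones in red, WT clones in blue and genotype means as black lines. Genotypes are separate for Ddx19a to Ddx19b in RPF, Ddx39b to Ddx39 in both assays and Dhx9 to Dhx36 in mRNA.

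Dhx9 to Dhx36, both binders of unusual nucleic acid structures, was 3.62, 3.94 and 4.32 in R98S against 2.31, 2.80 and 3.39 in WT clones for mRNA, without overlap. The genes lie on chromosomes 1 and 3. In the other settings of the gene test the mRNA difference ran from 0.18 to 0.38 for Dhx9 and from -0.12 to 0.15 for Dhx36. The value of 0.15 came with chromosome medians removed, and the ratio was not tested in that setting. In RPF the ratio was 2.41 ± 0.606 in R98S and 1.84 ± 0.340 in WT clones, with overlap (exact permutation p = 0.2). Ddx21 to Ddx50 in mRNA was 13.4, 15.3 and 10.2 in R98S against 4.48, 5.44 and 10.2 in WT clones. R98S clone 35 lay level with WT clone 36, so the mean ratios of 12.9 and 6.70 did not separate the genotypes (exact permutation p = 0.2). Ddx5 to Ddx17, at 1.91 to 5.15 over both assays, overlapped in each.

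Helicases with other names and known partners were read from 2 lists. The first held 18 tested RNA helicases outside the Ddx and Dhx symbols, such as the translation initiation factor Eif4a1 and the spliceosomal Snrnp200. An unadjusted p under 0.05 was reached by 0 in mRNA, 2 in RPF and 1 in TE (limma). These were 0%, 11.1% and 5.56%, against 17.9%, 20.3% and 7.85% of all genes. After adjustment 0 passed in mRNA or TE and 1 in RPF (limma), or 5.56% against the 7.76% of all genes. The one called was Eif4a2, a paralogue of Eif4a1, at 564, 458 and 470.2 in R98S against 837, 999 and 611 in WT clones, which did not overlap (log2 fold change -0.69, adjusted p = 0.0984, limma). Of 52 listed cofactors of these helicases, 1 of 51 tested passed in mRNA (1.96% against 6.94% of all genes), 2 of 52 in RPF (3.85% against 7.76%) and 0 of 51 in TE (limma). Both shares above 0 lay below those of all genes. An unadjusted p under 0.05 was reached by 7 cofactors in mRNA, 8 in RPF and 4 in TE (limma). These were 13.7%, 15.4% and 7.84%, against 17.9%, 20.3% and 7.85% of all genes. Utp14a, the activator of Dhx37, rose in mRNA by 0.70 (adjusted p = 0.0542, limma). RPF fell by 0.73 for Sugp1, a G-patch splicing factor (adjusted p = 0.06, limma), and by 0.75 for Eif4g3, a scaffold for eIF4A (adjusted p = 0.0647, limma).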

How the data were processed

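Ribosome footprints (RPF) and mRNA of 6 monoclonal Ba/F3 clones were sequenced, 1 library of each kind per clone, and each RPF library merges 3 technical replicates. The authors trimmed RPF reads with fastq-mcf, kept those of at least 20 bases, aligned both kinds of library to the mouse genome (mm10, GRCm38) with TopHat 2.0.11 on Bowtie2, kept mapping qualities of at least 10 with SAMtools, and counted RPF on coding sequence without the first 15 and last 5 codons. The counting program is not given in the sources used here. The authors deposited 2 tables of read counts divided by DESeq2 size factors, a normalized signal with no further unit. The counts are scaled by library depth and not by gene length. In each library 100.0% of values were whole reads within a tolerance of 0.001, so depths could be recovered.

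Groups were taken from the sample titles. Normalized counts were tested with limma 3.58.1 in R 4.3.3 (trend) on log2(value + 1) for genes with a mean of at least 10 (11344 for mRNA, 9580 for RPF). TE was tested on the difference of the log2 values within each clone for genes with at least 10 in all 12 libraries (9043). P-values were adjusted by Benjamini-Hochberg over all tested genes, with a threshold of 0.1. DESeq2 1.42.0 and edgeR 4.0.16 were run on the recovered reads as alternatives. The others were a pseudocount of 0.5, no filter, library weights, chromosome medians removed, no replicate block for TE, and each clone left out. RPF and mRNA libraries are paired by the clone number in the titles, and their deviations from the genotype means correlated in each of the 6 clones (mean r 0.52, from 0.22 to 0.68, across genes).

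On simulated data, in which 200 genes had a log2 change of 1.5, limma recovered 99.0% for mRNA and 96.0% for RPF of 9043 genes. For TE it recovered 67.4% of 193 changed genes among 8991. False calls by limma were 14 for mRNA, 13 for RPF and 5 for TE. The simulation gave all genes of an assay the same dispersion and held no clone or chromosome effects. It also drew mRNA and RPF of a clone independently. These figures therefore do not give the power or error rate of the tests on the real clones. Log2 differences of the members were smaller than 1.5, from -0.49 to 0.67 for mRNA, -0.84 to 0.66 for RPF and -0.91 to 0.51 for TE. Recovery of differences of that size was not tested. Lengths and sequences came from the GENCODE annotation of GRCm38, and motif II was searched in the translated coding sequences. Python 3.11.15 was used for summaries and figures. Named genes were the members past the threshold, the 3 largest differences in each direction and assay, the 3 highest and lowest levels and ratios, related pairs and Ddx46. Any further member described with its values was picked after seeing them. The members and lists were chosen with earlier results of these data known.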

Additional observations from a re-analysis of the deposited data

How the results depend on the processing

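The number of members called for mRNA was 0, and it was 6 with library weights (26.1% of all genes) and 0 to 2 when single clones were left out (2 without WT clone 28, 1 without WT clone 36). For RPF it was 2, and 0 to 1 without single clones. The share of all genes that passed without single clones is not given here, so those counts cannot be set against it. For TE it was 0, and it was 1 with DESeq2 (with the clone as replicate block), 3 with library weights (8.8% of all genes) and 0 without the replicate block. With the longest transcript as gene length, the median member stood at percentile 72.3 for mRNA and at 34.5 for the RPF to mRNA ratio. Over the named members, 273 of 300 alternative values kept direction and call for mRNA, 260 of 288 for RPF and 268 of 288 for TE.

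Small differences changed sign, and the cause was not tested. With chromosome medians removed, mRNA gave 0.12 for Ddx19a, 0.13 for Ddx19b and 0.15 for Dhx36, and RPF gave -0.14 for Ddx18, 0.036 for Ddx19a and -0.12 for Ddx59. This setting takes the same amount from all genes of a chromosome in a library, so these genes shift together. It also moved larger mRNA differences, from 0.51 to 0.31 for Ddx18 (chromosome 1) and from 0.53 to 0.62 for Ddx21 (chromosome 10). Why chromosome medians differed between the clones was not tested. With DESeq2 and edgeR, Ddx39 mRNA was -0.037 and -0.022 and Ddx18 RPF -0.031 and -0.022. With library weights, mRNA gave -0.13 for Ddx5 and -0.045 for Dhx33, RPF 0.061 for Ddx25 and 0.069 for Dhx9, and TE 0.14 for Ddx19a and -0.11 for Dhx34.

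Without single clones, mRNA ran from -0.25 to 0.033 for Ddx17, -0.21 to 0.036 for Ddx19b, -0.22 to 0.19 for Ddx39, -0.15 to 0.061 for Ddx59, -0.31 to 0.055 for Ddx6 and -0.10 to 0.22 for Dhx57. RPF ran from -0.30 to 0.32 for Ddx18, -0.41 to 0.15 for Ddx21, -0.19 to 0.11 for Ddx25, -0.031 to 0.29 for Ddx39b, -0.15 to 0.23 for Ddx59 and -0.18 to 0.25 for Dhx9. TE ran from -0.21 to 0.15 for Ddx19a, -0.043 to 0.24 for Ddx25, -0.38 to 0.030 for Ddx3x, -0.45 to 0.018 for Ddx50, -0.052 to 0.23 for Ddx59, -0.39 to 0.14 for Ddx6, -0.078 to 0.030 for Dhx32 and -0.052 to 0.19 for Dhx34.

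With 3 clones a genotype, 1 of them sequenced to 6617457 mRNA reads, a missed threshold does not show that a gene did not differ.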
